A study of Mus musculus with 19 samples.

Results

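Among the 150173 targets against which the mouse neural progenitor libraries were quantified, 11338 (7.55%) carried an identifier starting with TCONS, and these were taken as the assembled targets by that identifier alone. The other 138835 carried Ensembl transcript identifiers (ENSMUST) and are called annotated targets here. The assembled targets had a length, an estimated count and a TPM value in each library, and no exon structure, position, gene name or sequence was used for them. The libraries came from neural progenitor cells cultured from embryonic cortices of Mettl14 conditional knockout (cKO, called KO here) and wild-type (WT) mice, with 4 KO and 4 WT libraries. All were grown on Matrigel in B27-supplemented Neurobasal medium with heparin and 20 ng/ml of each of the growth factors FGF2 and EGF. The driver of the conditional deletion, the age of the embryos and the strain are not given in the labels. In these libraries, mRNA had been parted by length into 7 bands, each band with its own barcode, and read as pairs of 75 bp. A further 3 WT libraries made without this parting held 0 assembled targets, so they entered no comparison.

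An assembled transcript is a model of an RNA built by a program from overlapping aligned reads, in place of a model curated in advance. Such a model can stand for an unannotated isoform of a known gene, for an unannotated locus, or for a fragment or fusion made by the assembler. TCONS is the form of name that transcript-merging programs give to the models they write out. A pseudo-aligner such as kallisto assigns each read pair to the set of targets that could have given it and then divides shared reads among them. Its estimated counts therefore need not be whole, and its TPM divides them by effective length. Mettl14 and Mettl3 form the core of the complex that writes N6-methyladenosine (m6A) on RNA, a mark best known for hastening the decay of the mRNAs that carry it, and the title of the series names the question of whether parting RNA by length helps to reconstruct transcripts.

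The assembled targets were long. Their median length was 2874.5 nt, with quartiles of 1334 and 4905.8 nt and a range of 207 to 19672 nt. The annotated targets had a median of 948 nt, with quartiles of 552 and 2367.5 nt and a range of 9 to 123179 nt. Lengths were put in 7 classes cut at 1000, 1500, 2000, 3000, 4000 and 6000 nt, each class holding its lower edge and not its upper one; these are not the edges of the bands. Targets of 6000 nt or more made up 15.1% of the assembled and 2.97% of the annotated ones, and targets under 1000 nt made up 17.0% and 51.6%. Much of the difference lay among targets with little signal. Among targets with a mean of 1 TPM or more over the 8 libraries, 4064 assembled ones had a median of 2832.5 nt and 18919 annotated ones a median of 2152 nt.

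**Figure D1:**
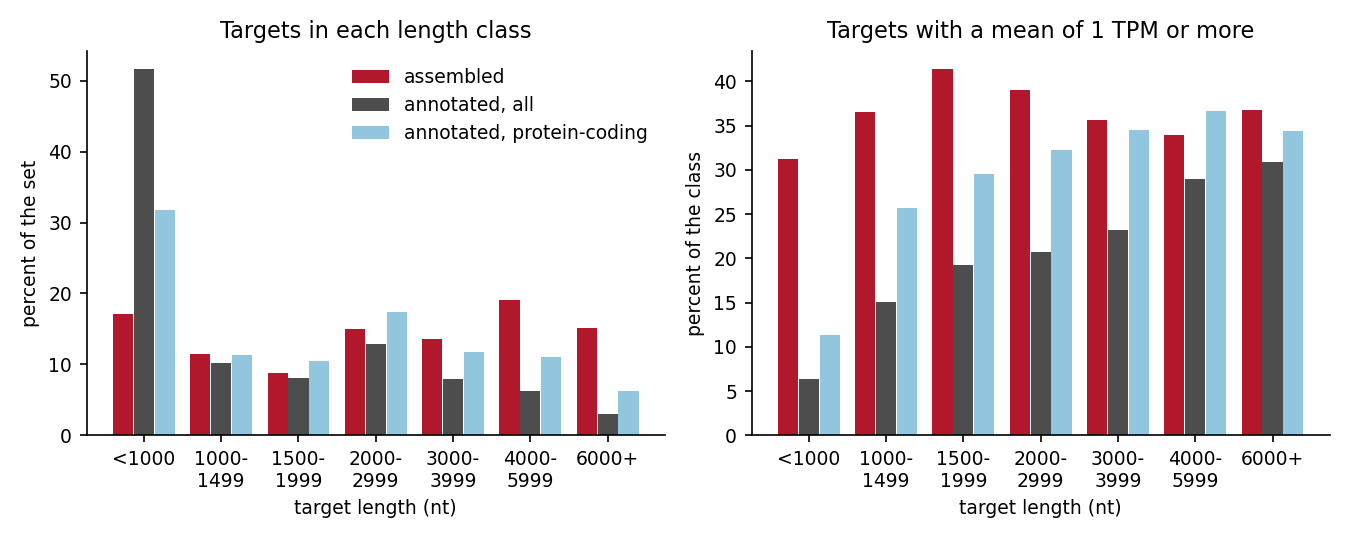
Left, the percent of each set of targets in 7 classes of target length; right, the percent of each class with a mean of 1 TPM or more over the 8 libraries. Bars stand for assembled targets, all annotated targets and annotated protein-coding targets. Of the assembled targets 17.0% were under 1000 nt, against 51.6% of the annotated ones, and in that class 31.2% against 6.33% reached 1 TPM.

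Nearly every assembled target drew reads. Only 68 (0.600%) were at 0 in all 8 libraries, against 31647 annotated targets (22.8%), and 92.04% against 41.6% had an estimated count above 0 in every library. The median assembled target had a mean level of 0.660 TPM and the median annotated one 0.0238 TPM, or 0.0563 TPM for the protein-coding targets alone. The sources do not say whether the assembled targets were built from these same libraries. Most assembled targets were nonetheless weak: 428 had a mean of 10 TPM or more, 74 of 100 TPM or more and 23 of 1000 TPM or more.

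Few of the assembled targets had whole-number estimates. A whole-number estimate, within 0.001, was found for 1.72% to 2.02% of the assembled targets with a count in a library, against 12.6% to 13.0% of the annotated ones. Weighted by counts the kinds were closer, since whole-number targets held 22.0% to 35.8% of the assembled counts and 25.4% to 36.3% of the annotated counts. An estimate that is not whole includes divided reads, and a level of an assembled target then depends on how they were divided with other targets. There were 16 assembled targets with the same length and the same counts as another assembled target, and 1 with those of an annotated target. Such copies cannot be told apart by these values.

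The share of assembled targets that reached 1 TPM was compared with that of annotated targets of the same length class within each library. It was higher for assembled targets in 8 of 8 libraries in all 7 classes, with the widest gap among short targets. Assembled models are built from reads, while 22.8% of annotated targets were at 0 in all 8 libraries. The same 2 lists of targets were scored in each library, so the libraries are no replicates of the lists. The p-values here measure only how steady the gap was between libraries. Under 1000 nt, 31.2% ± 3.74 of assembled and 6.28% ± 0.365 of annotated targets reached 1 TPM (SD, n = 8 libraries; exact sign-flip permutation test, two-sided, p = 0.0078 after adjustment over 7 classes, the smallest this design can give). From 1500 to 2000 nt, the shares were 39.0% ± 3.54 and 18.8% ± 0.702, and at 6000 nt or more 36.6% ± 5.19 and 30.4% ± 2.22 (SD, n = 8, same exact test and adjusted p). Set against protein-coding targets alone, the gap was 20.2 percentage points under 1000 nt and 2.76 points at 6000 nt or more. It was -0.05 points from 3000 to 4000 nt (exact test, adjusted p = 0.961) and -2.69 points from 4000 to 6000 nt (exact test, adjusted p = 0.0328). At a limit of 5 TPM in place of 1 TPM, the assembled targets fell below the annotated ones in every class from 1500 nt up. From 1500 to 2000 nt this was not past the threshold (-0.90 points, exact test, adjusted p = 0.0703), and in the longer classes it was (exact tests, adjusted p = 0.0091).

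The libraries held 104900000 to 118198000 estimated counts in KO and 103752000 to 126922000 in WT. Across assembled targets, Pearson's r of log2 CPM (counts per 1000000) was 0.956 to 0.972 between KO libraries and 0.944 to 0.968 between WT libraries, and 0.831 to 0.887 between the genotypes. These values are across targets, which are not independent replicates. As a check of the labels, Mettl14 summed to 1.70 to 2.61 TPM in KO and 6.63 to 8.89 TPM in WT. The progenitor markers Sox2, Nes, Pax6, Vim, Fabp7 and Hes5 were present in every library and summed to 3738 to 4228 TPM in KO and 5315 to 6781 TPM in WT. Fabp7 made up most of that sum, with 2776 to 3403 TPM in KO and 4215 to 5560 TPM in WT. Nes went the other way, with 37.1 to 69.8 TPM in KO and 16.2 to 30.7 TPM in WT. Sox2, Pax6, Vim and Hes5 overlapped between the genotypes. Markers of other cells also moved with genotype: oligodendrocyte lineage (Pdgfra, Sox10, Mbp) summed to 0.978 to 1.20 TPM in KO and 15.6 to 18.1 TPM in WT, astrocyte (Gfap, Aqp4) to 53.1 to 78.4 and 30.0 to 36.5 TPM, and fibroblast (Col1a1, Col3a1) to 0.387 to 0.692 and 0.0305 to 0.0987 TPM. Neuron markers (Tubb3, Dcx, Map2) summed to 33.2 to 47.9 TPM in KO and 44.0 to 65.5 TPM in WT. Map2 made up most of that sum and overlapped between the genotypes. Tubb3 stood at 3.42 to 5.455 TPM in KO and 9.695 to 11.58 TPM in WT, and Dcx at 0.308 to 0.547 and 0.7875 to 1.418 TPM. Endothelial markers (Pecam1, Cdh5) summed to 0.354 to 0.524 and 0.221 to 0.277 TPM, with Cdh5 at 0 in every WT library. Microglial and blood ones (Aif1, Ptprc) summed to 0.0261 to 0.0926 and 0.00611 to 0.0272 TPM. The part of these markers in the differences below was not tested, and in bulk RNA fewer cells of a type and less RNA per cell cannot be told apart. The labels do not say that the libraries of a genotype came from separate cultures or animals, so p-values measure the spread between libraries, which may be technical.

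In each library, the assembled targets took about the same part of the estimated counts. They held 13.0%, 12.2%, 11.9% and 12.3% of the counts in KO replicates 1 to 4, and 13.3%, 13.4%, 13.1% and 12.9% in WT replicates 1 to 4. KO replicate 1 lay within the WT range and the other KO libraries below it. The means were 12.3% ± 0.496 in KO and 13.2% ± 0.234 in WT, which did not differ past the threshold (SD, n = 4 each; exact two-sided permutation test, p = 0.0571, smallest possible 0.0286). Without KO replicate 1 the difference was -1.07 points (exact permutation test, p = 0.0286). The part of the TPM was 11.92%, 11.40%, 11.87% and 11.96% in KO replicates 1 to 4, and 14.0%, 15.1%, 13.3% and 13.3% in WT replicates 1 to 4. All KO libraries lay below all WT libraries, with means of 11.8% ± 0.264 in KO and 13.9% ± 0.862 in WT (SD, n = 4 each; exact two-sided permutation test, p = 0.0286). Annotated ribosomal RNA moved with genotype too, with 2.58% to 3.08% of the counts in KO and 4.60% to 9.40% in WT. With ribosomal and mitochondrial targets left out, the share of counts differed by -1.49 points (12.7% ± 0.498 in KO and 14.2% ± 0.513 in WT, n = 4 each, exact p = 0.0286).

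A few short targets carried much of this signal. The 3 most abundant assembled targets held 41.0% of all TPM of assembled targets and 15.2% of their counts, and the top 100 held 84.4% and 46.6%. The counts of these 3 were whole in 8 of 8 libraries. Without them, a step chosen after seeing the data, the assembled share of TPM was 7.84% ± 0.582 in KO and 7.31% ± 0.737 in WT, which did not differ past the threshold (SD, n = 4 each; exact permutation test, p = 0.343). The summed share of these 3 targets was 3.94% ± 0.598 in KO and 6.61% ± 1.13 in WT (n = 4 each, exact permutation test, p = 0.0286).

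The most abundant was 432 nt long. It stood at 21880, 16270, 13260 and 16840 TPM in KO replicates 1 to 4 and at 26120, 22200, 24790 and 22570 TPM in WT replicates 1 to 4. No KO library reached a WT library in TPM, but in CPM the genotypes overlapped, and the log2 fold change of KO over WT was -0.52 (SE 0.226; edgeR quasi-likelihood test, adjusted p = 0.102). On TPM in place of counts, limma gave -0.51 with an adjusted p of 0.0245. The second, of 577 nt, stood at 17440, 14500, 13430 and 15260 TPM in KO and 27610, 22120, 22730 and 21100 TPM in WT. It was lower in all KO libraries than in all WT libraries, with a log2 fold change of -0.66 (SE 0.198, edgeR adjusted p = 0.0298). Leaving out any 1 of KO replicates 2 and 3 and WT replicates 1 and 3 ended this call, with an edgeR adjusted p of 0.0667 to 0.0854. The third, of 296 nt, stood at 8268, 6747, 6656 and 7212 TPM in KO and 23290, 30070, 11200 and 10550 TPM in WT. All KO libraries lay below all WT libraries, but WT replicates 1 and 2 were far above WT replicates 3 and 4, and the log2 fold change was -1.41 (SE 0.336, edgeR adjusted p = 0.0121). The median gap between length and effective length, taken over long targets only, was 158 to 167 nt over the libraries. It was not taken on these 3 targets. A gap of that size would be a larger part of 296 nt than of 432 or 577 nt.

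**Figure D2:**
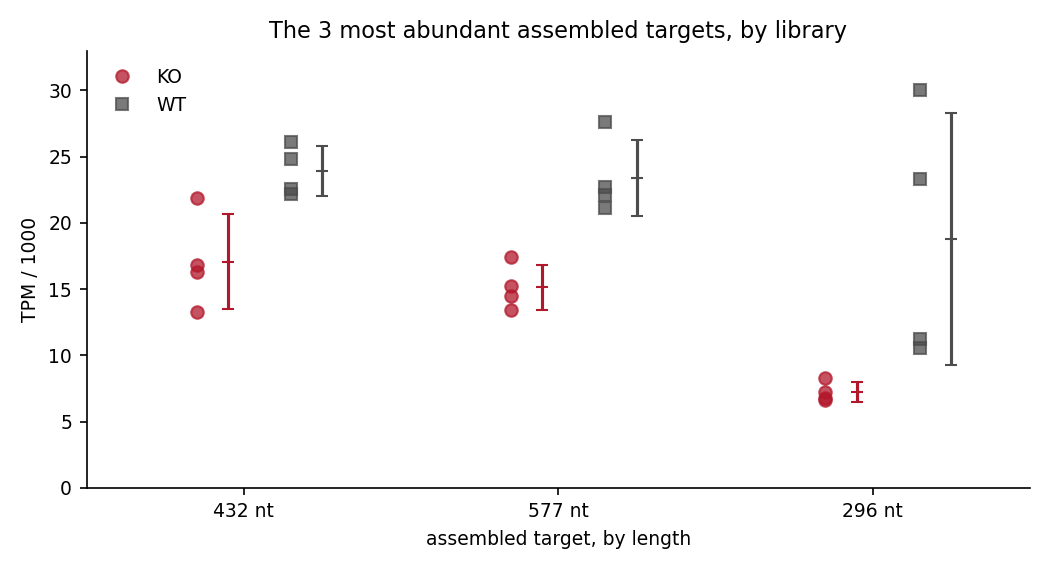
Levels of the 3 most abundant assembled targets in TPM divided by 1000, by library, with KO left of WT; points are libraries and bars show the mean and SD of 4 libraries. The KO points lie below the WT points for each target, and for the target of 296 nt the WT points range from 10550 to 30070 TPM.

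The most abundant assembled target of each longer class gave both directions. The target of 1335 nt had 1654, 2220, 1912 and 2569 CPM in KO and 2410, 2224, 2260 and 2324 CPM in WT, with overlap between the genotypes (log2 fold change -0.14, SE 0.143, edgeR adjusted p = 0.469). The target of 1948 nt had 1173, 1429, 1249 and 1275 CPM in KO and 772.9, 738, 854.5 and 866.2 CPM in WT. It was higher in every KO library than in every WT library (log2 fold change 0.67, SE 0.107, edgeR adjusted p = 0.00185). The target of 2104 nt had 459.6, 460.9, 483.9 and 452.3 CPM in KO and 331.4, 364.7, 389.6 and 361.6 CPM in WT. Its KO libraries were again all above its WT libraries (log2 fold change 0.36, SE 0.0904, edgeR adjusted p = 0.0145; limma on TPM, adjusted p = 0.0748). The target of 3189 nt had 480.1, 640.6, 661.1 and 652.9 CPM in KO and 283.2, 142.6, 420.5 and 367.7 CPM in WT, without overlap (log2 fold change 1.00, SE 0.303, edgeR adjusted p = 0.0312). This call was lost without WT replicate 1 or without KO replicate 2, 3 or 4, with an edgeR adjusted p of 0.0682 to 0.0757, and without the filter on low counts, at 0.0532.

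For the target of 5855 nt, the libraries of each genotype disagreed. It had 1776, 828, 873.7 and 833.6 CPM in KO and 265.2, 2615, 1119 and 946.6 CPM in WT, and WT held both the lowest and the highest library (log2 fold change -0.20, SE 0.611, edgeR adjusted p = 0.825). Without WT replicate 2 the log2 fold change was 0.49 (edgeR adjusted p = 0.511). The target of 7491 nt had 692.5, 603.1, 598.1 and 571.5 CPM in KO and 451.1, 501.6, 433 and 337.7 CPM in WT. Its KO libraries all lay above its WT libraries (log2 fold change 0.52, SE 0.137, edgeR adjusted p = 0.0182).

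The number of assembled targets at 1 TPM or more was 3824, 4211, 4435 and 3757 in KO replicates 1 to 4 and 3614, 4080, 3515 and 4194 in WT replicates 1 to 4. The genotypes overlapped, with means of 4057 ± 322 in KO and 3851 ± 336 in WT (SD, n = 4 each; exact two-sided permutation test, p = 0.429). At a lower limit of 0.1 TPM the count was 10348 ± 73.8 in KO and 10051 ± 115 in WT, without overlap (n = 4 each, exact permutation test, p = 0.0286).

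The place of assembled targets within a length class differed between the genotypes by class. Among all counts of targets under 1000 nt, assembled ones held 18.3%, 17.0%, 16.3% and 16.2% in KO and 23.4%, 21.2%, 20.3% and 19.3% in WT. From 1500 to 2000 nt the order was turned, with 5.09%, 5.48%, 5.21% and 5.11% in KO and 3.00%, 3.67%, 3.56% and 4.16% in WT. Both classes were free of overlap, in opposite directions. The class under 1000 nt holds the 3 most abundant assembled targets, and its share without them was not computed. Without them the assembled share of all counts was 10.9% ± 0.216 in KO and 10.8% ± 0.310 in WT (SD, n = 4 each, exact permutation test, p = 0.543). Among assembled targets of this class called one by one, 70.6% were rises, as given below. From 4000 to 6000 nt the assembled share was 17.0%, 16.1%, 15.8% and 16.2% in KO and 18.4%, 19.1%, 18.9% and 17.9% in WT. At 6000 nt or more it was 24.4%, 24.5%, 24.3% and 24.8% in KO and 25.84%, 25.78%, 26.96% and 27.96% in WT. These long classes were lower in every KO library than in every WT library.

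The differences in class share were -4.08, 1.63, -2.29 and -2.15 percentage points for those 4 classes. That of 1.63 from 1500 to 2000 nt was 0.61 once annotated ribosomal and mitochondrial targets were left out of the class, with the exact p at 0.0286 and the adjusted p at 0.05. Each reached the smallest p of the exact permutation test, 0.0286, and stood at 0.05 after adjustment over 7 classes, at and not under the threshold. Without WT replicate 2 these 4 classes and that from 1000 to 1500 nt passed, with an adjusted p of 0.04 by the exact test. In the other 3 classes the genotypes overlapped: 7.93% ± 0.0779 in KO and 8.13% ± 0.473 in WT from 1000 to 1500 nt, 6.48% ± 0.203 and 6.22% ± 0.203 from 2000 to 3000 nt, and 10.1% ± 0.272 and 9.63% ± 0.280 from 3000 to 4000 nt (SD, n = 4 each; exact tests, adjusted p = 0.314, 0.133 and 0.12). With 4 classes cut at the quartiles of assembled length, the adjusted p was 0.0381 for the lowest, second and highest quartile (exact tests, n = 4 each), with differences of -2.92, 0.88 and -2.39 points. Every class with an adjusted p of 0.05, 0.04 or 0.0381 stood at the smallest p of the exact test, 0.0286. These adjusted values differ only by how many classes were tested and how many reached that p.

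**Figure D3:**
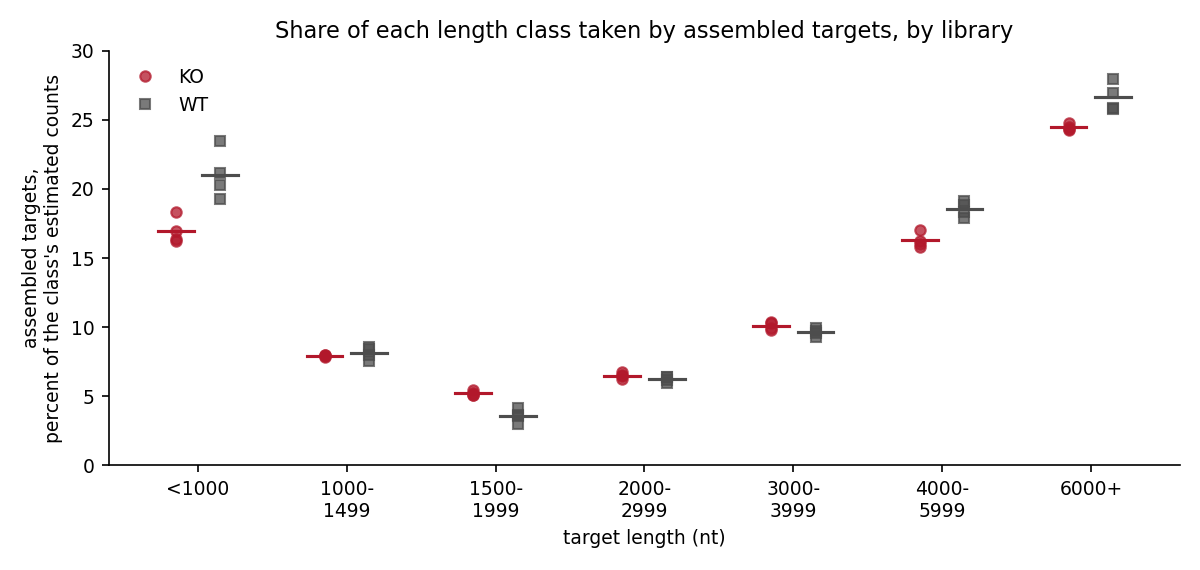
Percent of the estimated counts of each class of target length that fell on assembled targets, by library, with KO left of WT and a line at each mean of 4 libraries. KO points lie below WT points under 1000 nt and from 4000 nt up, and above them from 1500 to 2000 nt.

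Tested one by one, many assembled targets differed between the genotypes, in both directions. Of the 11338, 10852 passed the filter on low counts, and 2492 rose and 2320 fell in KO (edgeR quasi-likelihood test, adjusted p under 0.05 over all 59136 targets tested). Over all targets tested, 37.3% were called, 18.2% as rises and 19.1% as falls. The assembled targets were called at 44.3%, 23.0% as rises and 21.4% as falls, and the annotated ones at 35.7%, 17.1% and 18.6%. The assembled targets tested had higher CPM than the annotated ones, with a median log2 CPM of 1.28 against -0.05. At a log2 CPM below 0, 39.1% of assembled and 29.3% of annotated ones were called. From 0 to 1 the shares were 45.2% and 41.0%, from 1 to 2 45.2% and 42.7%, from 2 to 4 48.3% and 42.6%, and at 4 or more 46.3% and 42.3%. The KO and WT libraries did not overlap in 24.1% of tested assembled targets with KO above and 21.3% with KO below, against 19.4% and 19.9% over all targets.

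The median log2 fold change of tested assembled targets was 0.03, against -0.06 over all targets and -0.08 over annotated ones. Under other scalings of the counts the median over all targets lay between -0.04 and -0.01, and the percent of assembled calls that were rises was 52.9% to 55.6%, against 51.8% in the test above. At 2-fold or more, 1705 assembled targets rose and 1161 fell, which is 15.7% and 10.7% of those tested, against 10.6% and 10.3% over all targets. At 4-fold or more, 685 rose and 266 fell, which is 6.31% and 2.45%, against 3.61% and 2.4% over all targets. The median called rise was 1.32 on the log2 scale and the median called fall -1.001, against 1.08 and -1.06 among annotated targets. The median pooled SD between libraries of log2(CPM + 0.5) was 0.179 for assembled and 0.129 for annotated targets below a log2 CPM of 0, 0.254 and 0.259 from 1 to 2, and 0.241 and 0.210 at 4 or more. The added 0.5 narrows the SD of targets at low CPM, so the values below 0 do not show that such targets were steadier. The kinds also differed within that range, with a median log2 CPM of -1.16 for assembled and -1.96 for annotated targets.

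The direction of the calls followed length among assembled targets. Under 1000 nt, 463 rose and 193 fell, so that 70.6% of the calls were rises. From 1000 to 1500 nt 63.1% were rises, from 1500 to 2000 nt 59.4% and from 2000 to 3000 nt 56.7%. From 3000 to 4000 nt the share was 46.6%, and from 4000 to 6000 nt 388 rose and 600 fell, a share of 39.3%. At 6000 nt or more 322 rose and 492 fell, a share of 39.6%.

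Annotated targets showed no such order over length. Among them 42.7%, 49.2%, 51.8%, 52.3%, 43.7%, 47.2% and 52.0% of calls were rises in the same 7 classes, and among protein-coding ones the shares lay between 55.7% and 64.2%. The median log2 fold change of assembled targets was 0.29 under 1000 nt and -0.19 at 6000 nt or more, against -0.12 and -0.02 for annotated targets. From 3000 to 4000 nt the assembled median was -0.02 and changed sign under some of the other settings. Under other scalings, DESeq2, limma on TPM and a replicate block, rises were 71.5% to 74.3% of assembled calls under 1000 nt and 38.9% to 43.9% at 6000 nt or more. The difference between the kinds of target was not tested.

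**Figure D4:**
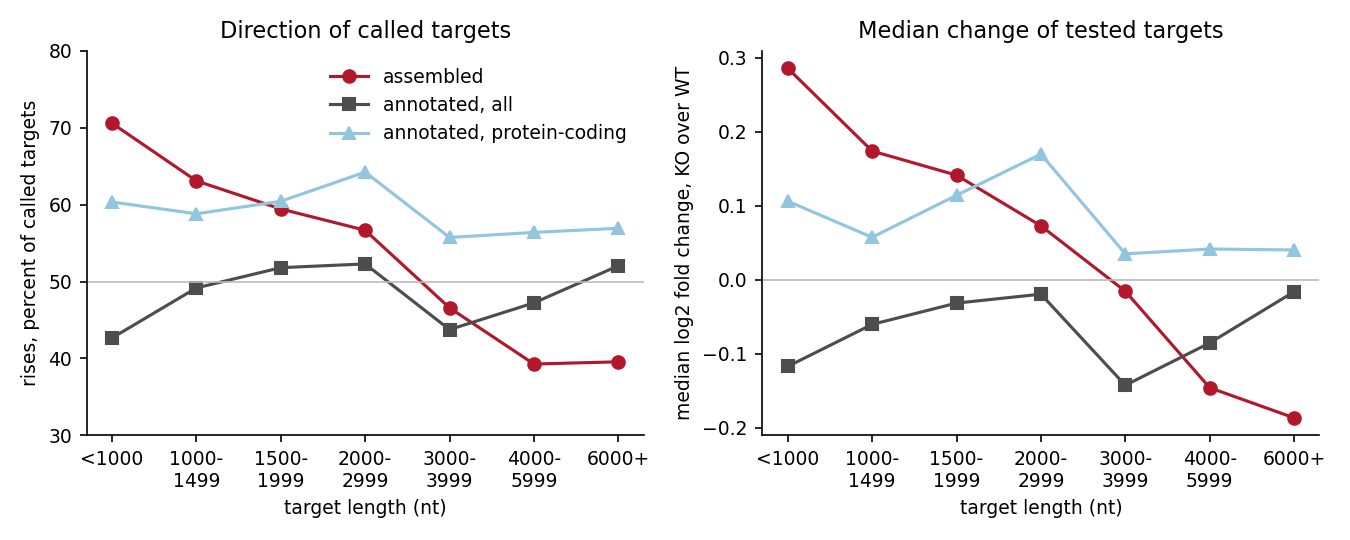
Left, rises as a percent of called targets in 7 classes of target length; right, the median log2 fold change of KO over WT of the targets tested. Lines stand for assembled, annotated and annotated protein-coding targets; for assembled ones the percent runs from 70.6% under 1000 nt to 39.6% at 6000 nt or more.

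Length moved with abundance here, since the median log2 CPM was -1.29 for assembled targets under 1000 nt and 2.90 at 6000 nt or more. By CPM, rises were 63.3% of assembled calls below a log2 CPM of 0 and 34.1% of annotated ones, and 58.2% and 70.2% at a log2 CPM of 4 or more. Between 1 and 2 they were 42.1% and 46.9%, so the direction of assembled targets did not follow CPM in 1 order.

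The targets that changed most had all or nearly all of their reads in a single genotype. The 2 largest rises were TCONS_00010521 and TCONS_00007868. TCONS_00010521, of 1691 nt, had 5.90, 11.6, 11.7 and 15.9 CPM in KO replicates 1 to 4 and 0 in all 4 WT libraries, at least 1668-fold higher in KO against a floor of 3 counts over the WT group (edgeR adjusted p = 0.000125). TCONS_00007868, of 5651 nt, had 12.95, 9.39, 7.84 and 13.1 CPM in KO and no count after rounding in WT, at least 1608-fold higher (edgeR adjusted p = 4.1e-05). Every KO library held reads of both, and no WT library held a count of either after rounding.

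The next 3 rises by the same rule were 1998, 2910 and 3515 nt long. That of 2910 nt was the most abundant of them, with 67.57, 84.98, 86.53 and 79.14 CPM in KO, against 0.199 CPM in WT replicate 2 and 0 in the other WT libraries. The rises of 1998 and 3515 nt had 6.115 to 14.1 and 3.71 to 6.81 CPM in KO, against a count after rounding in 1 WT library each.

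The largest falls were TCONS_00000929 and TCONS_00006456. TCONS_00000929, of 1654 nt, had no count after rounding in KO and 15.35, 3.53, 11.0 and 6.14 CPM in WT, at least 1324-fold lower in KO against a floor of 3 counts over the KO group (edgeR adjusted p = 0.000931). TCONS_00006456, of 6855 nt, was at 0 in KO and at 6.18, 8.90, 15.85 and 0.960 CPM in WT, at least 1165-fold lower (edgeR adjusted p = 0.00499). WT replicate 4 stood well below the other WT libraries for the second of these. The next 3 falls were 4486, 6391 and 7495 nt long, all without a count after rounding in KO and with 3.85 to 9.28 CPM in WT.

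Such targets were rare. Among the called rises, 31 assembled targets had no count after rounding in any WT library, or 0.286% of those tested. This held for 63 annotated targets (0.13%) and for 0.159% of all targets. Among the called falls, 12 assembled targets had no count after rounding in any KO library (0.111%), against 54 annotated targets (0.112%) and 0.112% over all targets. A stricter rule asked for an estimate of exactly 0, without rounding, in every WT library and 1 TPM or more in every KO library. It was met by 2 of 11338. These were TCONS_00010521 at 2.95, 6.54, 6.98 and 7.33 TPM and a target of 2240 nt at 1.10, 1.61, 1.64 and 1.47 TPM in KO. In the other direction there were 0 assembled targets, while 3 of the 138835 annotated targets met the rule in each direction. On rounded counts TCONS_00007868 would be added as a rise, with 1.30 to 1.80 TPM in KO. TCONS_00000929 would be added as a fall, with 2.12 to 7.75 TPM in WT. Their estimates in the other genotype were above 0 but under 0.001 counts. Other targets were not counted in this way. Because reads are divided among overlapping targets, an estimate of 0 is an outcome of that division and is no proof that the RNA was not there.

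The identifiers themselves carried a pattern. The TCONS numbers ran from 1 to 11608 with 270 not used, and, taken in order of number, the targets formed 310 runs within which the place in the file also rose. The files did not list the runs one after another: members of several runs alternated, so that most targets next to each other in the files were far apart in number. Of these, 79 runs held 50 or more targets, 7272 in all, and their median log2 fold changes ranged from -0.55 to 0.86. In 35 of these runs the median was above 0.25, and there 1360 of 3495 tested targets rose and 326 fell. In 15 runs it was below -0.25, and there 135 of 1175 rose and 364 fell. In the 29 runs between, 412 rose and 524 fell, and in the runs of under 50 targets 585 rose and 1106 fell. Rises thus outnumbered falls only in the group of runs above 0.25. In the run of numbers 3219 to 3283, 32 targets rose and 2 fell, and in that of 8602 to 8673, 10 rose and 26 fell. The runs of 50 or more targets were sorted here by the direction they show, so these counts are a description.

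The direction was compared between targets by the distance of their numbers. Of pairs that differed by 1 in number and were both called, 70.2% moved in the same direction, of pairs that differed by 50 58.3% and of pairs that differed by 200 44.0%, with Pearson's r of log2 fold change of 0.25, 0.10 and -0.06. Where targets that differed by 1 were also next to each other in the files and both were called, 691 of 906 pairs (76.3%) moved in the same direction, against 648 of 1247 pairs (52.0%) where targets next to each other in the files differed by more than 20 in number. Pearson's r of log2 fold change was 0.38 over 3883 pairs of the first kind and -0.004 over 6269 of the second. The pairs share libraries and may share reads, and how the numbers were given, and so what neighbours have in common, is not stated in the labels or files. Over the 79 runs, r of the median log2 fold change was -0.542 with median length and -0.563 with median log2 CPM, and the part of length in the pattern of the runs was not tested.

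The order by length was also present inside each kind of run. In the 35 runs with a median above 0.25, 89.0% of calls under 3000 nt and 69.4% of calls at 3000 nt or more were rises. In the 15 runs below -0.25 the shares were 32.9% and 23.0%, in the 29 runs between 52.8% and 35.5%, and in the runs of under 50 targets 42.4% and 28.5%.

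**Figure D5:**
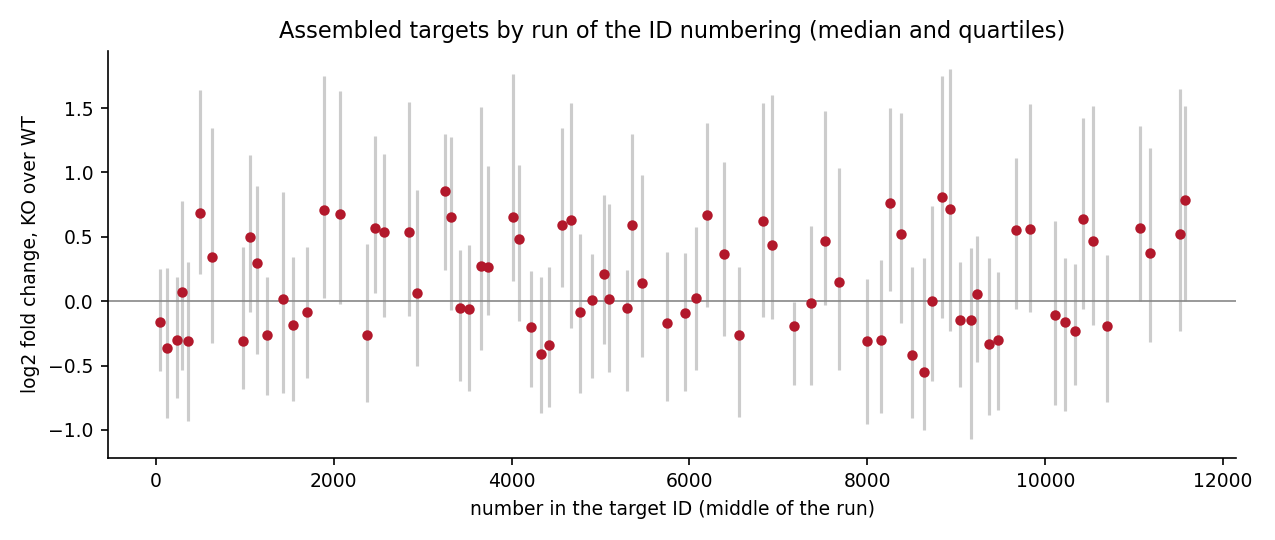
Median log2 fold change of KO over WT in each of 79 runs of 50 or more assembled targets, against the middle number of the run; grey lines span the quartiles. The medians range from -0.55 to 0.86. Many runs with a median above 0.25 follow each other in number, as those of 442 to 557 and 558 to 698 do. Such neighbours recur over the whole numbering.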

How the data were processed

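The submitters' processing notes list kallisto (no version named), STAR 2.5.4b, StringTie and GRCm38 (mm10) without their roles, and the column names are those of kallisto. How the bands were combined and the assembled targets built is not stated there. Estimated counts as deposited are not whole and were rounded for the tests. TPM were used as deposited, on a total common to all libraries. Annotated targets were matched to GENCODE M21 for type (138789 of 138835). KO and WT groups came from the labels. All targets were fitted together in edgeR 4.0.16 (R 4.3.3), with filterByExpr, TMM, robust quasi-likelihood tests and Benjamini-Hochberg adjustment (threshold 0.05). Shares used exact permutation tests over libraries. Alternatives used DESeq2 1.42.0, limma 3.58.1 on log2(TPM + 0.5), other scalings, no filter and left-out libraries. The edgeR test was also run on simulated counts with 50 targets changed by each fold. It recovered 6% of 2-fold rises and 4% of 2-fold falls, and 72% and 50% at 4-fold. With so few targets changed, the adjustment was stricter there than in the data, where 37.3% of targets were called. These percents therefore do not give the part of real changes that was found. Of 57158 simulated targets tested, 5 were called without a change. Replicates differed beyond sampling noise (chi-square per degree of freedom 39.8 to 97.3).

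Members, lists and length classes were chosen with earlier results of these data known. Targets were named by rule: called, with a mean log2 CPM of 1 or more and no overlap between genotypes, the 2 largest rises and falls by identifier and the next 3 by length, plus the most abundant targets overall and per length class. CPM are scaled by TMM, and bounds use unscaled CPM. Fitted fold changes against a genotype at 0 depend on the prior count and are not printed. The long-read structures and the 3 standard libraries were not used here.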

Additional observations from a re-analysis of the deposited data

Results flagged for a closer look

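In 4 of 51 groups of 4 libraries, 1 library lay apart from the other libraries of its genotype by the 95% limit of Dixon's test. Chance flags about 1 in 20 groups, but that rate does not apply to 3 of these, where the other libraries are all at 0 and any count in the remaining library meets the limit. The assembled share of TPM was 11.4% in KO replicate 2, against 11.87%, 11.92% and 11.96% in the other KO libraries, and all of these lay below the WT libraries. For the rise of 1998 nt, WT replicate 1 had 0.009644 CPM and the other WT libraries 0. For the rise of 2910 nt, WT replicate 2 had 0.1986 CPM and the other WT libraries 0. For the rise of 3515 nt, WT replicate 3 had 0.02473 CPM and the other WT libraries 0. In these last 3 cases, with CPM taken from rounded counts, the library held 1.49, 24.79 and 2.715 estimated counts in that order.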

How the results depend on the processing

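The number of assembled targets called stayed within 1.5 times of that reported under DESeq2, limma, other scalings, no filter and left-out libraries, where calls were 4014 to 4457 without 1 library; a test beyond 1.5-fold gave 1422 rises, 1006 falls and 2428 calls, fewer by its construction. The KO minus WT share of counts was -1.49 points without ribosomal and mitochondrial targets (exact permutation p = 0.0286), -1.07 to -0.68 with 1 library left out (exact p = 0.0286 without KO replicate 1), 0.26 without the 10 and 0.12 without the 3 most abundant targets. The share of TPM was -2.35 to -1.73 points with 1 library left out, 0.68 without the 10 and 0.53 without the 3 most abundant targets. The difference in detected targets was 297 at 0.1 TPM and 79.9 to 320 with 1 library left out. Of the 19 targets described singly, that of 5855 nt, which was not called, had a log2 fold change of 0.15 by limma, 0.031 with a replicate block and -0.54 to 0.49 with 1 library left out, above 0 only without WT replicate 2; 6 calls among the most abundant targets were lost in the test beyond 1.5-fold, 1 (577 nt) under the block and the others beside their values in the results. The class shares differed by -4.68 to -3.28 points under 1000 nt, -0.41 to -0.064 from 1000 to 1500 nt, 1.43 to 1.81 from 1500 to 2000 nt (0.61 without ribosomal and mitochondrial targets), -2.54 to -2.10 from 4000 to 6000 nt and -2.43 to -1.71 at 6000 nt or more with 1 library left out, and these 5 passed with an exact test's adjusted p of 0.04 only without WT replicate 2. The detected share of assembled minus annotated targets was -0.90, -2.82, -3.35, -4.71 and -4.74 points in the classes from 1500 nt up at 5 TPM, and -0.048 and -2.69 points against protein-coding targets from 3000 to 6000 nt. Except for the effects of left-out targets, samples or a narrower test, the cause was not tested. Replicate numbers did not pair the libraries (correlations of deviations of -0.0709, 0.0937, -0.0699 and 0.0410, and not every library correlated best with its own number). With a replicate block, 4221 assembled targets were called, 2210 rises and 2011 falls, and the share of TPM differed by -2.13 points with an exact sign-flip p = 0.125, the smallest 4 pairs can give. Depth limits targets with few counts: 486 assembled targets did not pass the filter.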
